A study of Mus musculus with 6 samples.

Results

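Hox, Meis and Pbx genes encode transcription factors that recognise DNA through a homeodomain. They were read out as a set in RNA-seq of sorted mouse haematopoietic stem cells. The set was chosen by name, as protein-coding Hox genes of the 4 clusters with Meis and Pbx genes, which gave 46 of the 55471 gene IDs in the deposited table. Of these, 44 are described here: 10 HoxA, 10 HoxB, 9 HoxC, 9 HoxD, 3 Meis and 3 Pbx genes, and counts of members below cover these 44. All 6 libraries came from mice of the genotype ETV6-RUNX1, which carry an inducible copy of the fusion found in childhood B-cell precursor leukaemia. In 3 libraries the mice were uninduced and had no doxycycline, and in 3 the mice had eaten doxycycline food for 2 weeks. The cells were sorted as Lin-, Kit+, Sca1+, CD48- and CD150+. The promoter that drives the fusion, the strain, the age and the number of mice behind each library are not given in the sources used here, so p-values measure the spread between these libraries, which may be partly technical. No group received doxycycline without the fusion in these data, so fusion and drug cannot be told apart.

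Hox genes lie in 4 clusters, and their order along each cluster follows the order in which they act along the body axis of the embryo. In blood, genes of the HoxA and HoxB clusters are active in stem and early progenitor cells and are shut down as cells mature. Hox proteins gain DNA specificity by binding beside Pbx and Meis proteins, which belong to the TALE class of homeodomain proteins. Hoxa9 together with Meis1 is a known driver of leukaemia when kept on, and RUNX1, whose DNA-binding domain the fusion retains, is a regulator of stem cell emergence.

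Promoter sequence bears on whether members carry the letters such factors read, and was available from RefSeq for 27 of the 44 members (29 windows, build GRCm38.p6, 250 bases before to 50 bases after the start site). The letters of 3 motifs were searched on both strands, and no match overlapped another in the printed windows. The RUNX motif TGTGGT was found in 16.8% of all 32851 windows, and in 2 of the 29 member windows, those of Meis1 and Hoxd10. The MEIS motif TGACAG was found in 19.2% of all windows and in those of Hoxa2 and Hoxa3. The HOX-PBX motif TGATTNAT was found in 3.22% of all windows and in those of Hoxa2 and Hoxd11. Meis1 is shown because it had the highest level of the members described and carries the RUNX letters, and Hoxa2 because its window holds both cofactor motifs. Both lie on the minus strand, at chr11:19018920-19019219 and chr6:52164782-52165081. Each is printed 5′ to 3′ along the gene, with motif matches in capitals. The Meis1 match begins 166 bases before the start site, and the Hoxa2 matches begin 111 bases (ATCAATCA, the HOX-PBX motif on the other strand) and 44 bases (TGACAG) before it. Such matches describe letters only.
Meis1 promoter: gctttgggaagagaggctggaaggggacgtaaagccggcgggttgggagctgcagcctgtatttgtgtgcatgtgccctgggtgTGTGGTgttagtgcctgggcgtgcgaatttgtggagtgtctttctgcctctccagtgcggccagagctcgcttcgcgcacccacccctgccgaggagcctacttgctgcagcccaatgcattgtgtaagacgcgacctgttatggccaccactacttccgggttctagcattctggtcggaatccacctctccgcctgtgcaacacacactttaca
Hoxa2 promoter: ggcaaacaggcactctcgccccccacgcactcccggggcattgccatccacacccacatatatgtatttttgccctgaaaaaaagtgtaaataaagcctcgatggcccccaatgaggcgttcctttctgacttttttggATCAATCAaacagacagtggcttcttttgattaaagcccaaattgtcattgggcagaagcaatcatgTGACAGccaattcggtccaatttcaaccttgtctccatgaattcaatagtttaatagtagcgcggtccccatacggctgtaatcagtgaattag

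The values were TPM, a share of each library corrected for gene length. Levels can be compared between genes only as far as reads were assigned to the right gene, and the depth of each library is unknown. Tests used limma on log2(TPM + 1) over the 13470 genes whose mean reached 1 TPM. At an adjusted p under 0.05, 1.29% of these genes were called higher and 10.2% lower in induced cells (11.5% either way), and the median log2 change was -0.35. After median-of-ratios scaling, which removes that offset, 2.84% were called higher and 3.21% lower (6.04% either way). Nuclear protein-coding genes held 29.8, 32.9 and 26.6% of TPM in uninduced libraries and 22.0, 20.5 and 23.2% in induced libraries. That share was lower in every induced library, and its part in the offset and in the lower calls was not tested. Changes below are on the deposited scale unless the scaling is named. Transcripts of the stem cell gate were present in both groups. Its 11 markers summed to 526 to 726 TPM in uninduced and 620 to 682 TPM in induced libraries, and Cd48 was listed at 0 to 3.02 TPM. The markers did not move together: limma called 4 higher and 3 lower, or 5 and 1 after median-of-ratios scaling. Their median log2 change was -0.55 (-0.16 after that scaling), below the median of all tested genes, so the sum does not describe each marker. Erythroid markers rose (6 of 8 tested called higher, none lower), from a sum of 54.6 to 60.6 TPM to one of 402 to 467 TPM. Ly6a, which encodes Sca1, rose by 1.33 log2 units in limma (adjusted p 0.00694), or by 1.71 after median-of-ratios scaling. Kit, also a sort marker and named after its value was seen, was called lower by limma (-0.81, adjusted p 0.0354) but not after that scaling (-0.41, adjusted p 0.220). Proliferation genes fell (12 of 14 called lower, Mki67 among them, limma adjusted p 0.000255), from 407 to 485 TPM to 82.0 to 115 TPM. In bulk RNA, fewer cells of a type and less RNA per cell cannot be told apart. Of the other marker sums, multipotent progenitor (49.1 to 62.9 against 67.1 to 86.8 TPM) and macrophage markers (82.6 to 131 against 134 to 153 TPM) were higher in every induced library, with 0 of 2 and 0 of 4 tested genes called by limma on the deposited scale. Most of the first sum was Cd34 (49.5 ± 6.07 and 71.5 ± 11.2 TPM, SD, n = 3 each), with Il7r and Dntt at 0, and most of the second was Lyz2 (97.9 ± 22.7 and 131 ± 10.2 TPM, SD, n = 3 each). Cd34 and Lyz2 were called higher after median-of-ratios scaling (limma adjusted p 0.0205 and 0.0136). The sums of granulocyte (209 to 228 against 150.2 to 174 TPM) and B cell markers (6.24 to 15.9 against 3.11 to 5.10 TPM) were lower. After median-of-ratios scaling the granulocyte (180 to 197 against 171 to 195) and B cell sums (5.196 to 15.02 against 3.75 to 5.72) overlapped. Within the granulocyte list Prtn3 was called higher by limma (1.12, adjusted p 0.0114) and Camp lower (-1.38, adjusted p 0.0283; 0.1002 after median-of-ratios scaling). On the deposited scale the sums overlapped for megakaryocyte (111 to 140 against 120.01 to 132 TPM), T cell (at most 3.56 TPM) and endothelial or stromal markers (10.7 to 14.8 TPM). The megakaryocyte list held 2 genes called higher by limma, Ppbp (3.22, adjusted p 0.00343) and Pf4 (1.13, adjusted p 0.0253), and 1 called lower, Gp9 (-2.33, adjusted p 0.0187; 0.0617 after median-of-ratios scaling). Scaled sums of the stem cell gate (496 to 574 against 706 to 764) and of megakaryocyte markers (92.3 to 110.3 against 139 to 145) were higher in every induced library. The part of any of these in the results below was not tested.

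The sorted cells held transcripts of HoxA genes up to Hoxa10 and of HoxB genes mainly from Hoxb2 to Hoxb6, with Meis1 and Pbx genes beside them, and no gene described here passed the test on the deposited scale. Of the 44 members, 17 reached a mean of 1 TPM and were tested: 8 HoxA, 5 HoxB, Meis1 and 3 Pbx genes. By limma 0 of the 17 were called in either direction, beside a background of 1.29% higher and 10.2% lower, and 3 of 17 had an unadjusted p under 0.05, beside 27.9% of all tested genes. On the deposited scale 8 of the 17 changes were positive, with a median of -0.062, beside 27.5% positive among all tested genes. After median-of-ratios scaling 13 of the 17 were positive, with a median of 0.32, beside 49.8% of all tested genes. With that scaling limma called 0 of the 17, beside 2.84% higher and 3.21% lower, and 6 of 17 had an unadjusted p under 0.05, beside 21.8% of all tested genes. The 2 groups did not overlap for Hoxa6, Hoxb4 and Hoxb5, each higher in induced cells (4.83% of all tested genes did this), and for 0 members in the lower direction (28.2% of all tested genes). After median-of-ratios scaling Hoxa3, Hoxa5 and Meis1 joined the higher group, which made 6 members, where 13.4% of all tested genes did not overlap and were higher.

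HoxA genes held most of the Hox transcripts. They summed to 71.3, 119 and 78.3 TPM in uninduced and to 107, 86.6 and 79.4 TPM in induced libraries, or 82.1% ± 2.85 (SD, n = 3) and 82.0% ± 3.93 (SD, n = 3) of all Hox TPM. HoxB genes summed to 14.5, 22.7 and 15.6 TPM and to 16.8, 20.0 and 19.0 TPM. For both clusters the groups overlapped, so the summed output of each did not separate them. After median-of-ratios scaling the HoxA sums still overlapped (59.4 to 94.3 against 83.8 to 120.3), and the HoxB sums did not (12.1 to 17.9 against 18.8 to 24.1). HoxC genes summed to 4.71, 0 and 0.0252 TPM in uninduced libraries and to 0, 0.826 and 2.07 TPM in induced libraries. Hoxc6 was at 3.70 TPM in uninduced replicate 1, and the other HoxC genes reached at most 1.11 TPM (Hoxc4 in induced replicate 3). All 9 HoxD genes were listed at 0 in every library.

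**Figure D1:**
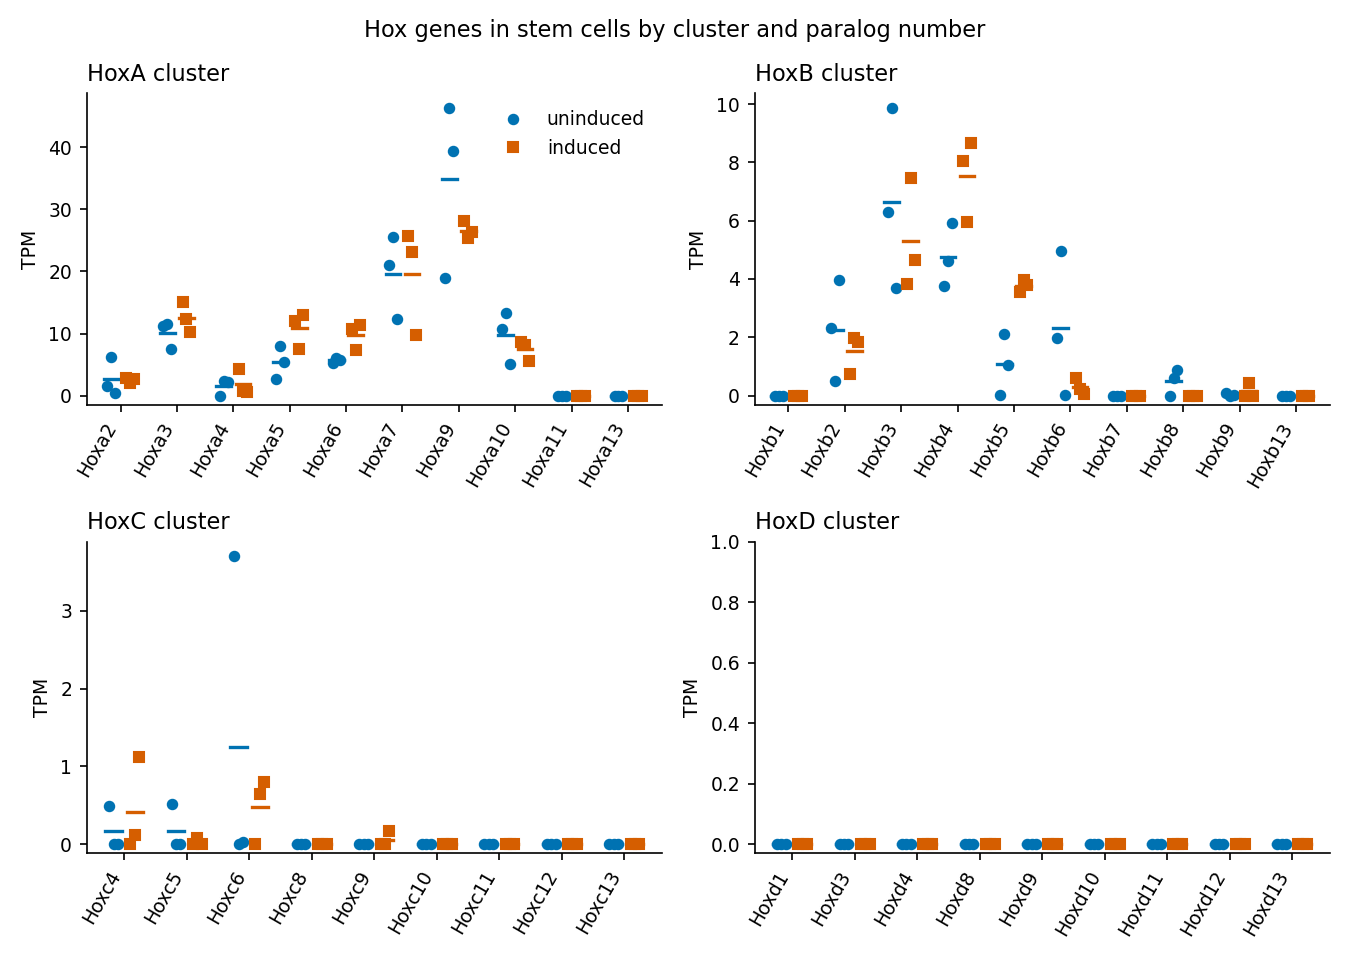
Level of each Hox gene described, in TPM (vertical axis, a separate scale in each panel) by cluster and paralog number (horizontal axis); each point is a library, circles uninduced and squares induced, and each bar is a group mean (n = 3). Mean levels peak at Hoxa9 in HoxA and at Hoxb3 and Hoxb4 in HoxB, and all HoxD genes are listed at 0.

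Levels differed along HoxA (Hoxa2 to Hoxa13, chr6:52162417-52260880, all positions on GRCm38). Mean levels were highest at Hoxa9 and Hoxa7, and the genes beyond Hoxa10, Hoxa11 and Hoxa13, were listed at 0 in all 6 libraries. In HoxB (chr11:96194316-96368256) the genes with a mean of 1 TPM or more ran from Hoxb2 to Hoxb6, and Hoxb1, Hoxb7 and Hoxb13 were listed at 0. Paralog groups 11, 12 and 13, which pattern the hind end of the embryo, were at 0 in all clusters. In all, 19 members were listed at 0 in every library: the 5 just named, 5 HoxC genes (Hoxc8, Hoxc10, Hoxc11, Hoxc12 and Hoxc13) and the 9 HoxD genes. A listed 0 is not a limit of expression in this table, since Men1, a gene most cells use, was also listed at 0 in all 6 libraries. At 1 TPM or more, 15 to 16 members were present in each library.

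Hoxa9 (ENSMUSG00000038227, chr6:52223100-52231089), which supports stem cell repopulation, had the highest mean level of the Hox genes described. It was at 18.9, 46.4 and 39.4 TPM in uninduced and at 28.1, 25.3 and 26.3 TPM in induced libraries. The induced values lay inside the uninduced range. Its log2 change was -0.29 (95% interval -0.98 to 0.40, limma adjusted p 0.583) and 0.099 after median-of-ratios scaling (-0.60 to 0.80, limma adjusted p 0.894). The value depended on single libraries: it was -0.67 (limma adjusted p 0.107) without uninduced replicate 1, the lowest library, and -0.041 (limma adjusted p 0.947) without uninduced replicate 2, the highest. Hoxa7 (chr6:52214491-52221854) was next, at 21.1, 25.5 and 12.4 TPM and at 25.8, 23.1 and 9.69 TPM. In both groups replicate 3 was the lowest, and the log2 change was -0.062 (limma adjusted p 0.937). Hoxa10 (chr6:52231197-52240854), which is also tied to stem cell and leukaemia growth, was at 10.7, 13.4 and 5.12 TPM and at 8.61, 8.21 and 5.54 TPM, again with overlapping groups (log2 change -0.28, limma adjusted p 0.663). With a library left out the Hoxa10 change ran from -0.64 (without uninduced replicate 3) to -0.024 (without uninduced replicate 2), and it was -0.17 without uninduced replicate 1 and -0.10 without induced replicate 3. The sign of the Hoxa7 and Hoxa10 changes turned with median-of-ratios scaling, to 0.32 and 0.083.

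Hoxa5 and Hoxa6, in the middle of the cluster, had higher means in induced cells, and neither passed the test on the deposited scale. Hoxa6 (chr6:52206288-52208722) was at 5.28, 5.98 and 5.77 TPM in uninduced and at 10.8, 7.35 and 11.4 TPM in induced libraries. Every induced value was above every uninduced one, with a log2 change of 0.68 (limma adjusted p 0.164; SE 0.29) and of 1.03 (limma adjusted p 0.0583; SE 0.27) after median-of-ratios scaling. With TPM rescaled to nuclear protein-coding genes the change was 1.17, which passed when only the 10562 such genes were tested (limma adjusted p 0.0429) and did not when all 13470 were (limma adjusted p 0.0530). In these fits limma called 435 of the 10562 and 405 of the 13470 genes higher. Hoxa5 (chr6:52201754-52204587) was at 2.74, 7.98 and 5.41 TPM and at 12.1, 7.48 and 12.96 TPM. Induced replicate 2 lay below the highest uninduced library, and the log2 change was 0.95 (limma adjusted p 0.141; SE 0.38), or 1.29 (limma adjusted p 0.0736; SE 0.36) after median-of-ratios scaling, and 0.61 (limma adjusted p 0.329) without uninduced replicate 1. Hoxa3 (chr6:52169062-52213336) was at 11.2, 11.6 and 7.53 TPM and at 15.1, 12.4 and 10.2 TPM, with overlapping groups and log2 changes of 0.29 and, after median-of-ratios scaling, 0.66 (limma adjusted p 0.534 and 0.176). On the deposited scale the Hoxa3 change was 0.12 without uninduced replicate 3 and 0.17 without induced replicate 1. Hoxa2 and Hoxa4 were low, at 0.470 to 6.20 TPM and 0 to 4.23 TPM over all libraries, with log2 changes of 0.24 and 0.14 (limma adjusted p 0.818 and 0.913), or 0.52 and 0.33 after median-of-ratios scaling.

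Shares within a cluster do not depend on the scaling between libraries. Hoxa5 made up 3.84, 6.68 and 6.92% of the HoxA sum in uninduced and 11.2, 8.63 and 16.3% in induced libraries. Hoxa6 made up 7.399, 5.01 and 7.37% and 10.02, 8.49 and 14.3%. Both shares were higher in every induced library. Hoxa7, Hoxa9 and Hoxa10 together, a grouping chosen after the values were seen, made up 71.7% ± 0.868 (SD, n = 3) and 58.6% ± 6.53 (SD, n = 3), lower in every induced library. Shares of a sum are tied, so this fall mirrors rises of other HoxA genes, among them Hoxa5 and Hoxa6. It is not a further result. For Hoxa9 alone the share was 26.5, 38.8 and 50.4% against 26.1, 29.2 and 33.1%, and it overlapped, as did the shares of Hoxa7 and of Hoxa10. With 3 libraries against 3 no exact permutation test of a share could go below a p of 0.1.

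**Figure D2:**
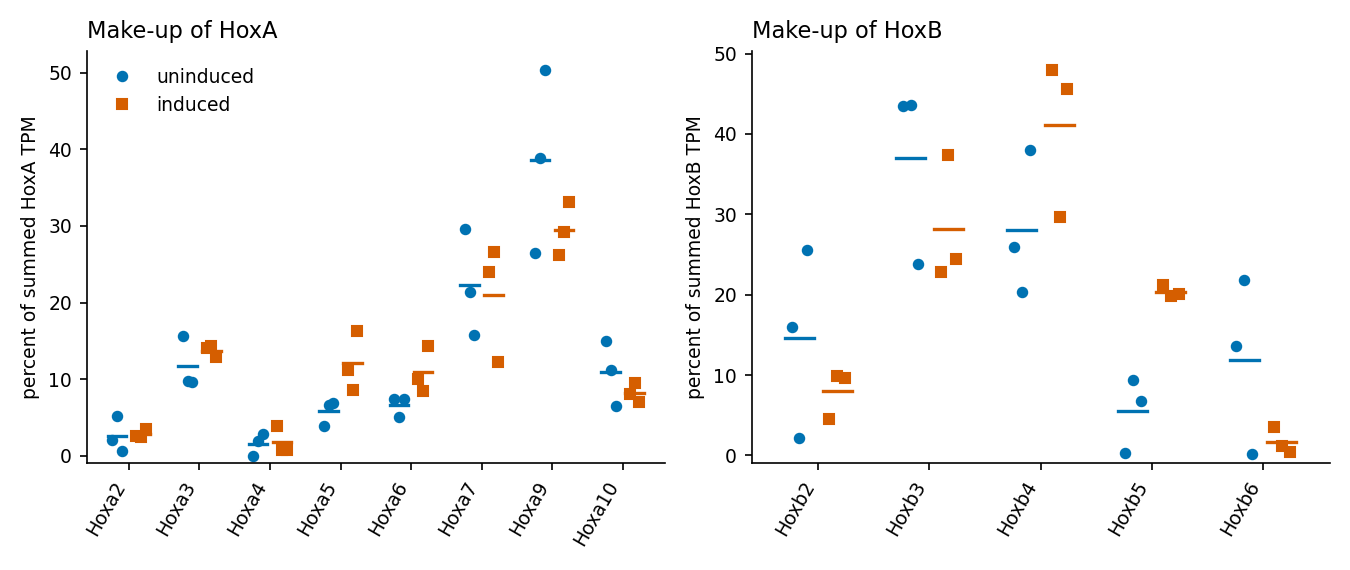
Share of the summed TPM of HoxA (left) and HoxB (right) held by each tested gene, in percent (vertical axis); each point is a library, circles uninduced and squares induced, and each bar is a group mean (n = 3). Hoxa5, Hoxa6 and Hoxb5 hold a larger share in every induced library, and Hoxa9 and Hoxa7 overlap.

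In HoxB, Hoxb5 (chr11:96303336-96306121), used as a marker of long-term repopulating stem cells, was higher in every induced library and did not pass. It was at 0.0357, 2.13 and 1.05 TPM in uninduced and at 3.55, 3.95 and 3.81 TPM in induced libraries. All induced libraries were higher and close together, while uninduced replicate 1 was near 0. The log2 change was 1.34 (limma adjusted p 0.0991; SE 0.48) and 1.57 (limma adjusted p 0.0738; SE 0.44) after median-of-ratios scaling, and 0.91 (limma adjusted p 0.230) without uninduced replicate 1. Its size depends on the pseudocount, since the levels are low: it was 2.46 (limma adjusted p 0.141) with 0.1 TPM added and 0.54 (limma adjusted p 0.0894) with 5 TPM added. Its share of the HoxB sum was 0.246, 9.38 and 6.76% against 21.1, 19.8 and 20.05%. Hoxb4 (chr11:96318267-96321638), which expands stem cells when overexpressed, was at 3.75, 4.62 and 5.91 TPM and at 8.05, 5.94 and 8.65 TPM. The groups separated only narrowly, between 5.91 and 5.94 TPM, with a log2 change of 0.57 (limma adjusted p 0.273; SE 0.32) and of 0.91 (limma adjusted p 0.121; SE 0.30) after median-of-ratios scaling.

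The other HoxB genes overlapped between groups. Hoxb3 was at 6.30, 9.87 and 3.70 TPM in uninduced and at 3.83, 7.46 and 4.64 TPM in induced libraries (log2 change -0.23, limma adjusted p 0.745, turning to 0.11 once scaled by median of ratios). Hoxb2 was at 2.32, 0.491 and 3.98 TPM and at 0.755, 1.97 and 1.83 TPM (log2 change -0.25, limma adjusted p 0.799, turning to 0.085 when TPM was rescaled to nuclear protein-coding genes). Hoxb6 was at 1.97, 4.95 and 0.0228 TPM and at 0.599, 0.221 and 0.0683 TPM, where uninduced replicate 3 was below all induced libraries (log2 change -1.04, SE 0.65, limma adjusted p 0.333, and -0.85 once scaled by median of ratios). Without that library the Hoxb6 change was -1.72 (limma adjusted p 0.0826), and without uninduced replicate 2 its mean fell under 1 TPM and it was not tested. Pseudocounts of 0.1 and 5 TPM gave -1.70 and -0.41. Hoxb8 and Hoxb9 stayed under 1 TPM in every library. By paralog number, group 5 (Hoxa5, Hoxb5 and Hoxc5) summed to 3.29, 10.1 and 6.47 TPM and to 15.6, 11.5 and 16.8 TPM, with no overlap. No other paralog group separated. The group 5 sum was mostly Hoxa5 and Hoxb5, both given above, so it is not a further result. Paralog group 9 held the largest sum, with a mean ± SD of 3 libraries of 34.9 ± 14.2 TPM uninduced and 26.8 ± 1.18 TPM induced, and overlapped.

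Among the cofactors, Meis1 (ENSMUSG00000020160, chr11:18879817-19018985), which partners Hoxa9 and is needed to keep stem cells, had the highest level of the members described. It was at 89.7, 54.4 and 83.8 TPM in uninduced and at 101.3, 75.1 and 99.3 TPM in induced libraries. The groups overlapped, and the log2 change was 0.29 (95% interval -0.21 to 0.79, limma adjusted p 0.435), or 0.070 (limma adjusted p 0.848) without uninduced replicate 2, the lowest library. After median-of-ratios scaling the groups separated, with a log2 change of 0.69 (95% interval 0.16 to 1.21, limma adjusted p 0.124), still short of the threshold. Meis2 and Meis3, its relatives, were at 0 to 0.427 TPM and 0 to 0.857 TPM. Of the summed Meis TPM, Meis1 held 99.0 to 100% in each library.

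Pbx2, Pbx3 and Pbx4, which pair with Hox proteins on DNA, did not pass. Pbx2 (chr17:34591266-34597400) was at 13.9, 23.9 and 38.5 TPM and at 13.2, 17.5 and 14.7 TPM, with a log2 change of -0.61 (limma adjusted p 0.277), or -0.23 (limma adjusted p 0.778) after median-of-ratios scaling. It was -0.97 (limma adjusted p 0.0841) without uninduced replicate 1 and -0.26 (limma adjusted p 0.608) without uninduced replicate 3. Pbx4 was at 5.22, 3.78 and 12.1 TPM and at 3.09, 1.17 and 7.26 TPM, with a log2 change of -0.81 (limma adjusted p 0.371), or -0.50 (limma adjusted p 0.664) after median-of-ratios scaling. The Pbx4 change was -1.30 without induced replicate 3, -0.33 without induced replicate 2 and -0.38 without uninduced replicate 3. Pbx3, a partner of Hoxa9 in leukaemia, was at 4.66, 4.30 and 7.36 TPM and at 4.88, 2.30 and 8.61 TPM, with a log2 change of -0.14 (limma adjusted p 0.862), which turned to 0.18 once scaled by median of ratios. In each of these the groups overlapped. Together Pbx2, Pbx3 and Pbx4 summed to 23.7, 32.0 and 58.0 TPM in uninduced and to 21.2, 21.0 and 30.5 TPM in induced libraries, with overlap. Pbx2 made up 58.4, 74.8 and 66.4% of that sum against 62.4, 83.5 and 48.03%, also with overlap. The uninduced sum was highest in replicate 3, where Pbx2 and Pbx4 were both at their highest, and without that library the log2 ratio of the group means moved from -0.65 to -0.20.

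The ratio of Meis1 to summed Hox TPM was 0.99045, 0.383 and 0.893 in uninduced and 0.816, 0.699 and 0.988 in induced libraries, and overlapped.

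**Figure D3:**
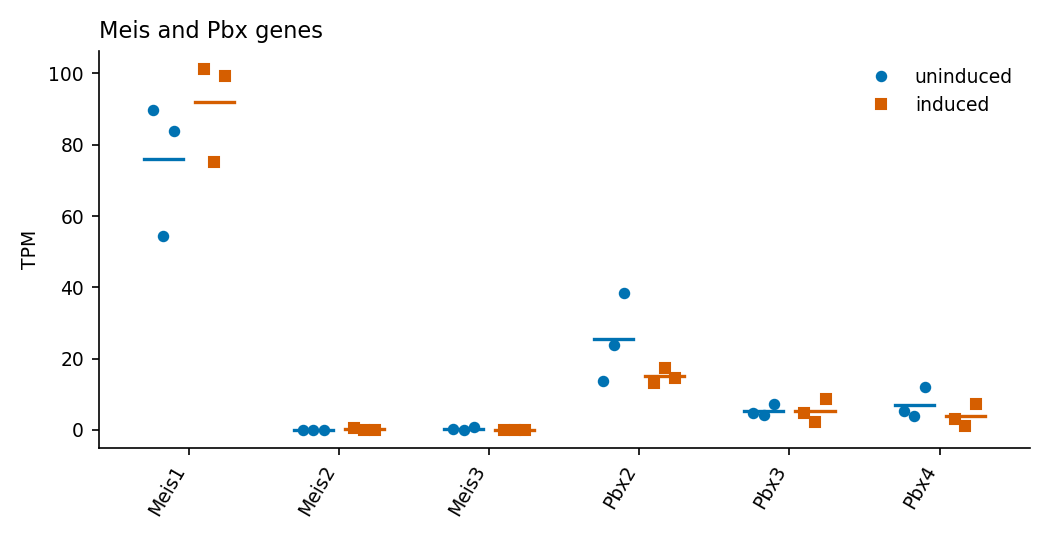
Level of the Meis and Pbx genes described, in TPM (vertical axis); each point is a library, circles uninduced and squares induced, and each bar is a group mean (n = 3). Meis1 lies at 54.4 to 89.7 TPM in uninduced and at 75.1 to 101.3 TPM in induced libraries, far above its relatives, and the groups overlap for each gene.

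**Figure D4:**
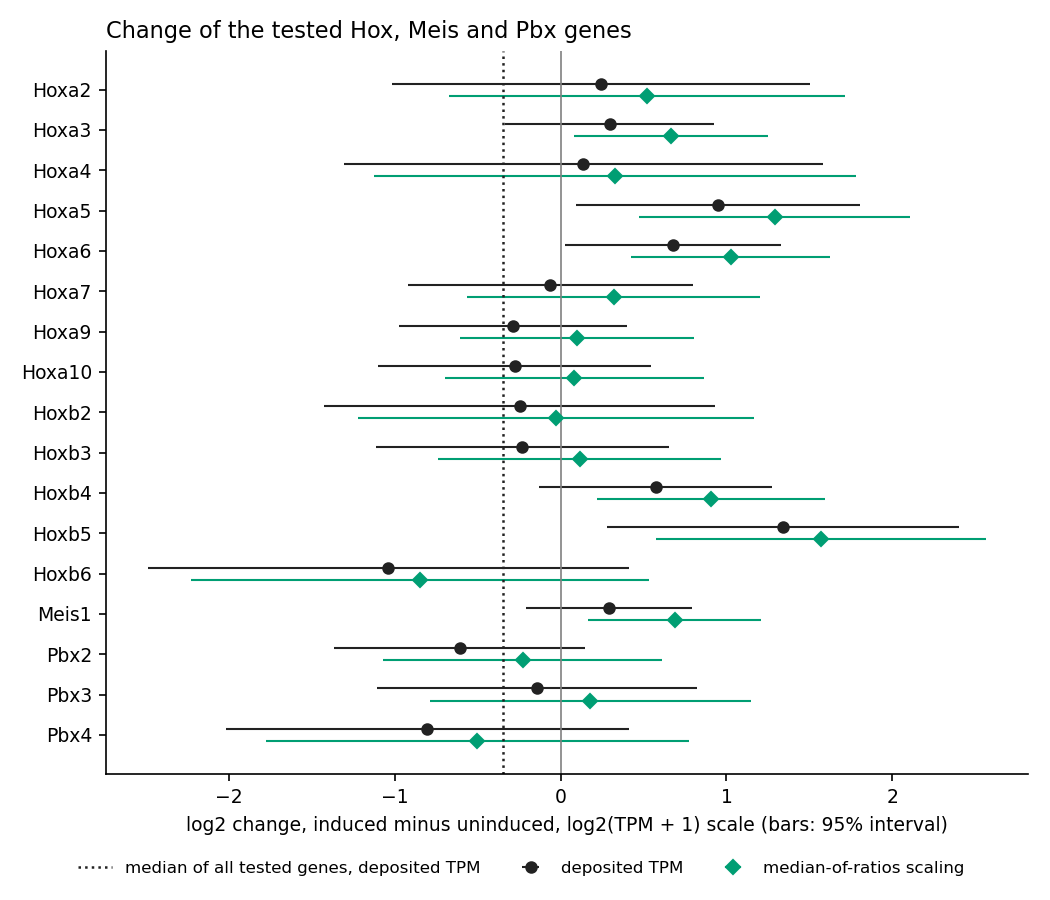
Log2 change, induced minus uninduced, of the 17 tested members described (horizontal axis, log2(TPM + 1) scale) with its 95% interval, on the deposited TPM (circles) and after median-of-ratios scaling (diamonds). The dotted line is the median of all tested genes on the deposited scale, -0.35. On that scale the intervals of Hoxa5, Hoxa6 and Hoxb5 lie above 0 while those of the other members include it.

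Annotated neighbours limit some of these values. In GENCODE M21, 227 exon bases of Pbx2 are shared with Gpsm3 on the same strand, which was at 32.3 to 34.8 TPM in uninduced and 17.6 to 24.3 TPM in induced libraries. Exons of Meis1 overlap those of Gm16140 on the opposite strand (12.3 to 28.0 TPM) by 896 bases and those of Gm37818 on the same strand (1.70 to 5.31 TPM) by 1029 bases. Gm28308 shares 482 exon bases with Hoxa3 and 267 with Hoxa2, and was at 11.0 TPM in induced replicate 3 and listed at 0 in the others. Antisense genes of the HoxA and HoxB clusters stayed at or below 1.71 TPM. The library kit keeps strand, but whether the authors' counting used it is not given in the sources used here, so values of the overlapping genes are uncertain. Hoxb5 shares 100 exon bases with Hoxb5os on the opposite strand, which was at 1.71 TPM in uninduced replicate 1, the library where Hoxb5 was at 0.0357 TPM, at 1.14 TPM in induced replicate 2 and listed at 0 in the others. The part of this overlap in the Hoxb5 values was not tested. No exon of another gene overlapped those of Hoxa5, Hoxa6, Hoxa10 or Hoxb4.

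The miR-10 and miR-196 families lie inside the Hox clusters, and each keeps its seed across clusters, which is why their sequences are shown (RefSeq, GRCm38.p6; seed, bases 2 to 8, in capitals). The miR-10 family sits near paralog group 4 genes (miR-10a-5p at chr11:96317186-96317208, plus strand), and the miR-196 family near group 9 genes (miR-196b-5p at chr6:52230129-52230150, minus strand).
mmu-miR-10a-5p: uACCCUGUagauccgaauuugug
mmu-miR-10b-5p: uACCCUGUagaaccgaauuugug
mmu-miR-196a-5p: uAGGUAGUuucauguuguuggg
mmu-miR-196b-5p: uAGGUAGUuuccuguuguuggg
Values are of the hairpin genes in a total RNA library and do not measure the mature forms. Mir10a, beside Hoxb4, was listed at 0 in all uninduced libraries and at 0.173, 2.07 and 5.62 TPM in induced libraries (limma adjusted p 0.153). Mir196b, whose 85 bases lie in an exon of Hoxa9, was at 0.286, 2.35 and 0.287 TPM and at 0.125, 0.00357 and 0.00484 TPM. Both were low, and Mir10b, Mir196a-1 and Mir196a-2 were listed at 0 throughout. Of the 17 noncoding genes of the clusters found in the table, Mir10a was the 1 gene that could be tested.

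Genes around the Hox system were read from lists of regulators, partners and targets. Of 26 tested regulators of Hox chromatin, such as the MLL complex and Dot1l, 1 was called higher and 5 lower, with a median log2 change of -0.50, beside 1.29% higher and 10.2% lower and a median of -0.35 over all tested genes. After median-of-ratios scaling 1 was higher and 1 lower, with a median of -0.12, beside 2.84% and 3.21%. Mllt3, a subunit that recruits Dot1l and sustains stem cells, rose by 1.16 log2 units in limma (adjusted p 0.00482; mean ± SD of 3 libraries 44.6 ± 6.71 TPM uninduced, 100.5 ± 5.32 TPM induced). Psip1, which tethers the MLL complex, fell by 1.37 log2 units in limma (adjusted p 0.00486; mean ± SD of 3 libraries 107 ± 24.9 TPM uninduced, 40.3 ± 4.08 TPM induced). Both also passed once scaled by median of ratios, and Mllt3 is also in the stem cell gate list. Dot1l, the H3K79 methyltransferase, was called lower by limma (adjusted p 0.0279; mean ± SD of 3 libraries 13.1 ± 4.07 TPM uninduced, 4.28 ± 1.04 TPM induced), as was Mllt1 (limma adjusted p 0.0390), but neither passed once scaled by median of ratios (limma adjusted p 0.117 and 0.149). Kmt2a, the core enzyme, named here outside the rule for naming genes, was at 15.7 ± 2.93 and 20.0 ± 2.25 TPM (SD, n = 3 each; limma adjusted p 0.401).

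Among 35 tested genes known as targets or partners of Hoxa9 and Meis1, 3 were called higher and 4 lower, with a median log2 change of -0.26, beside the same 1.29% and 10.2% of all tested genes. After median-of-ratios scaling 7 were higher and 1 lower, with a median of 0.14, beside 2.84% and 3.21%. Among those higher, Hlf and Mecom, named after their values were seen, are also stem cell gate markers. Cd34 is also in the progenitor list and Pf4 in the megakaryocyte list. The list of targets and partners also holds Meis1, a member described here. Gfi1, a repressor that restrains stem cell division, rose by 1.76 log2 units in limma (adjusted p 0.00709; mean ± SD of 3 libraries 3.17 ± 0.894 TPM uninduced, 12.9 ± 0.623 TPM induced). Its relative Gfi1b fell by 1.54 log2 units in limma (adjusted p 0.0276; mean ± SD of 3 libraries 21.2 ± 6.80 TPM uninduced, 6.97 ± 3.63 TPM induced), a call lost after median-of-ratios scaling (0.114). Pf4, a platelet chemokine and Meis1 target that is also in the megakaryocyte list, rose in limma (adjusted p 0.0253; mean ± SD of 3 libraries 28.4 ± 11.2 TPM uninduced, 60.7 ± 8.62 TPM induced), and Jun fell in limma (adjusted p 0.00507; mean ± SD of 3 libraries 808 ± 105 TPM uninduced, 439 ± 19.7 TPM induced).

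Of the other TALE genes 3 of 11 could be tested (Pknox1, Tgif1 and Tgif2) and none passed. Of 20 tested homeobox genes outside these families 0 passed on the deposited scale, while Nkx2-3 passed once scaled by median of ratios (0.91, limma adjusted p 0.0194; named after its value was seen). Genes flanking the clusters had 0 of 14 called higher and 2 lower, beside 1.29% and 10.2% of all tested genes: Cbx5 (log2 change -1.27, limma adjusted p 0.0109) and Hnrnpa1 (-0.999, limma adjusted p 0.00684), both near HoxC. After median-of-ratios scaling 2 were called higher and 2 lower, beside 2.84% and 3.21%. Those called lower were again Cbx5 (-0.89, limma adjusted p 0.0457) and Hnrnpa1 (limma adjusted p 0.0205). Those called higher, named after their values were seen, were Tax1bp1 (0.51, limma adjusted p 0.0461) and Calcoco1 (0.79, limma adjusted p 0.0373). Runx1 and Etv6, the parents of the fusion, stood at 37.1 ± 8.45 and 44.4 ± 5.24 TPM and at 84.5 ± 9.48 and 83.0 ± 3.70 TPM (SD, n = 3 each), and neither passed.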

How the data were processed

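Total RNA of sorted stem cells was sequenced from 3 uninduced and 3 induced libraries. Per the submitters' processing notes, HISAT2, StringTie and DESeq2 were used with GRCm38; versions, annotation release, filters and the use of strand are not given in the sources used here. The authors deposited TPM, with 1 column per library, and gene GC content in percent, which was not used in a test. TPM keeps no depth, so no counting interval can be given. Rows were summed per gene ID, and no member had more than 1 row.

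limma 3.58.1 (R 4.3.3) with a variance trend was run on log2(TPM + 1) for genes averaging 1 TPM or more, two-sided, with Benjamini-Hochberg adjustment over 13470 genes and a threshold of 0.05. The step was tested on simulated data for this comparison (13470 genes, 200 changed): 94% of genes changed by 2 log2 units and 30% of those changed by 1 were recovered, with 12 false among 136 calls. The changed genes were drawn only from those above about 5 TPM. These rates therefore do not cover the low members Hoxa2, Hoxa4, Hoxb2, Hoxb5 and Hoxb6. Alternatives were other pseudocounts, filters, scalings and variance models, a block by replicate number and the removal of each library in turn. Median-of-ratios scaling used 13927 genes above 0 in all libraries. Named were every tested member, in full for those called on either scale and the 3 highest of each cluster or family, up to 4 called genes of each further list (those with the largest change), and Etv6, Runx1, Ly6a and Mki67. Protein features were not analysed here. Some members and list genes are not reported here, and sums, shares and counts of members leave them out; tests and background cover all genes. Members and lists were chosen with earlier results of these data known.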

Additional observations from a re-analysis of the deposited data

How the results depend on the processing

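TPM keeps no depth, so what depth limits cannot be stated. The count of members called, 0 of 17, became 1 (Hoxa6, higher) with rescaling to nuclear protein-coding genes. There only 10562 genes were tested, of which 435 were called higher and 451 lower. The count of members was 0 under the other alternatives and with any 1 of 6 libraries left out. The replicate block gave 0, and so did 3 alternatives added after seeing the data: block and median-of-ratios scaling together, the rescaling with all 13470 genes tested, and deposited TPM with the 10562 genes tested. Same-numbered libraries had correlations of deviations of 0.0215, -0.0152 and 0.0172, so no pairing was visible by this measure. It cannot exclude pairing, and no label says whether the numbers pair the libraries.

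The 1549 genes called overall (174 higher and 1375 lower) became 752 without the filter, 814 with median-of-ratios scaling (382 and 432), 814 with quantile normalization (374 and 440), 886 with protein-coding rescaling (435 and 451), 788 with that rescaling and all genes tested (405 and 383), 767 without the variance trend, 902 with the replicate block, 456 with block and scaling, and 611 to 1276 with a library left out. The count fell by more than 1.5 times without uninduced replicate 1 (870) or 2 (762) or induced replicate 1 (771), 2 (611) or 3 (920).

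With median-of-ratios scaling (with or without the block), quantile normalization and protein-coding rescaling, the sign turned for Hoxa10 (0.083, 0.076 and 0.13), Hoxa9 (0.099, 0.11 and 0.14), Hoxa7 (0.32, 0.32 and 0.37), Pbx3 (0.18, 0.17 and 0.23) and Hoxb3 (0.11, 0.11 and 0.17), and with the last for Hoxb2 (0.085). These scalings remove the offset of all genes. Signs also turned with a library left out, where Hoxa4 ran from -0.43 to 0.44, Hoxa7 from -0.35 to 0.35, Hoxb3 from -0.54 to 0.066, Hoxa2 from -0.27 to 0.88, Pbx3 from -0.52 to 0.25 and Hoxb2 from -0.73 to 0.14; fewer samples were used. Pseudocounts of 0.1 and 5 TPM turned no sign and gave 0 calls of members, but moved low genes, among them Hoxb5 from 1.34 to 2.46 and 0.54, Hoxb6 from -1.04 to -1.70 and -0.41, Hoxa4 from 0.14 to 0.70 and 0.053, Hoxa2 from 0.24 to 0.55 and 0.033, Pbx4 from -0.81 to -1.03 and -0.44, Hoxa5 from 0.95 to 1.08 and 0.62, and Hoxb4 from 0.57 to 0.66 and 0.36. The log2 ratios of the summed TPM were 0.023 for HoxA, 0.082 for HoxB, 0.27 for Meis and -0.65 for Pbx2 to Pbx4. They became 0.44, 0.50, 0.65 and -0.29 with median-of-ratios scaling and 0.48, 0.54, 0.68 and -0.26 with protein-coding rescaling. With a library left out they ran from -0.12 to 0.28 for HoxA, -0.040 to 0.31 for HoxB, 0.075 to 0.40 for Meis and -0.89 to -0.20 for Pbx2 to Pbx4. The members detected per library, a median of 15.5 at 1 TPM, were 10 at 5 TPM.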
